A study of Mus musculus with 9 samples.

Results

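The TNF superfamily ligands and receptors were followed through 3 stages of mammary development in adipose stromal cells (ASCs) of the mouse mammary gland. Members were taken by name: every gene of the array whose symbol is Tnf, a numbered Tnfsf or Tnfrsf symbol, or 1 of the older names that this family kept (Cd27, Cd40, Cd40lg, Cd70, Eda, Eda2r, Edar, Fas, Fasl, Lta, Ltb, Ltbr, Ngfr and Relt), and whose probe set carried that symbol alone. This gave 44 genes of the 19930 that had a name, 16 ligands and 28 receptors, 3 of which are decoys that bind ligand without signalling. Each member was read by 1 probe set. A further probe set, which carries the names Tnfsf12 and Tnfsf13 together, was not analysed here. The rule uses names alone, although the family was picked with earlier results of these data known.

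Total RNA was hybridised to 9 Affymetrix Mouse Gene 1.0 ST arrays, 3 for each stage, all from female Balb/c mice. The nulliparous animals were 8 weeks old and had never been housed with males (their cells are called ASC-Ns), the lactating animals were at day 5 of lactation (ASC-Ls), and the involuting animals were at day 3 of involution (ASC-Is). The labels name no transgene, allele or drug for any group. Per the study's methods the cells came from a collagenase and hyaluronidase digest of the inguinal fat pad and were cultured for a few passages in serum before the RNA was taken, so every level below is that of a cultured preparation. The labels call the arrays biological replicates without saying how many animals went into each, and the p-values therefore measure the spread between preparations. All signals are on the log2 scale, where a difference of 1 is 2-fold. The plus-minus values are standard errors of a difference (SE) from 1 limma fit over the 9 arrays unless an SD is named.

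TNF superfamily ligands are made as trimeric proteins on the cell surface, and some are cut loose by proteases. Their receptors fall into those with a death domain, which can start apoptosis through FADD and caspase-8, those that bind TRAF adaptors and switch on NF-κB and JNK signalling, and decoys that bind ligand without signalling. In the mammary gland RANKL (Tnfsf11) carries the progesterone signal for alveolar growth, Fas and its ligand take part in the loss of alveolar cells after weaning, and in adipose tissue TNF restrains adipocyte differentiation and raises lipolysis.

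The cells carried the fibroblast programme of cultured stroma. Across 14 stromal fibroblast genes, among them Col1a1, Pdgfra and Thy1, the mean signal ran from 9.74 to 10.24 in ASC-Ns, 9.57 to 10.37 in ASC-Ls and 9.72 to 10.16 in ASC-Is. By mean signal these genes lay between the 40.4th (Pi16) and the 99.97th (Col1a1) percentile of all genes. Pdgfra was lowest on array 2 of the ASC-Ls (8.86) and of the ASC-Is (9.86), beside 11.1 to 11.4 in ASC-Ns. Of 11 adipocyte genes measured, Adipoq and Lep, adipokines of mature adipocytes, were the lowest, at the 9.94th and 11.5th percentile of all genes by mean signal. Lpl, Fabp4, Pparg and Cd36, which act in lipid uptake and adipogenesis, lay at the 96.8th, 73.0th, 64.8th and 63.3rd percentile. Markers of other cell types moved between arrays. The mean of 17 luminal epithelial genes was 5.55 to 6.58 in ASC-Ns, 5.69 to 8.58 in ASC-Ls and 5.54 to 7.23 in ASC-Is, with the highest value of each of the latter stages on its array 2. The means of 10 basal epithelial and 7 milk genes also peaked on array 2 of those stages. So did the mean of 12 endothelial genes, which was 5.36 to 6.83 in ASC-Ns, 5.63 to 7.12 in ASC-Ls and 5.44 to 6.62 in ASC-Is. The mean of 20 macrophage genes was 5.78 to 7.65 in ASC-Ns, 6.07 to 6.36 in ASC-Ls and 6.74 to 8.33 in ASC-Is, and 10 of the 20 fell below the ASC-Is in ASC-Ls past the limits defined in the next paragraph, which 0.406% of all genes did. Lymphocyte markers were low and flat, with means of 4.58 to 4.79 for 14 T and NK cell genes and 4.52 to 4.79 for 8 B cell genes over all arrays. In a bulk preparation fewer cells of a type and less RNA per cell cannot be told apart.

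A gene was counted as changed where its unadjusted limma p was below 0.05 and its difference at least 1.5-fold. After Benjamini-Hochberg adjustment over all 19930 genes no gene passed 0.05 in any comparison, and the smallest adjusted limma p of a member was 0.998. By the unadjusted limits 1 of 44 members, Cd40, rose in ASC-Ls over ASC-Ns, against 0.627% of all genes in either direction and 0.171% upward. Neither of the other comparisons had a member past the limits, against 0.482% of all genes for ASC-Ls over ASC-Is and 0.251% for ASC-Is over ASC-Ns. At an unadjusted limma p below 0.05 with no demand on the fold, the members numbered 2 for ASC-Ls against ASC-Ns (3.64% of all genes), 0 for ASC-Ls against ASC-Is (1.80%) and 1 for ASC-Is against ASC-Ns (1.56%). A single member past the limits is too few to read against these shares.

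The median difference of the 44 members was 0.08 for ASC-Ls against ASC-Ns, -0.01 for ASC-Ls against ASC-Is and 0.09 for ASC-Is against ASC-Ns, beside 0.01, 0.01 and 0.00 for all genes. The ASC-L mean lay above the ASC-N mean for 28 of 44 members, where 51.7% of all genes did the same, and above the ASC-I mean for 22 members (52.0%). The ASC-I mean lay above the ASC-N mean for 30 members (50.9%). Among the ligands these counts were 10, 6 and 11 of 16, and among the receptors 18, 16 and 19 of 28. The 3 arrays of a stage spanned a median of 0.35 for a member in ASC-Ns, 0.42 in ASC-Ls and 0.36 in ASC-Is, while the median size of a member's difference between stage means, sign aside, was 0.19, 0.14 and 0.12 in the same 3 comparisons (0.12, 0.10 and 0.10 for all genes).

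**Figure D1:**
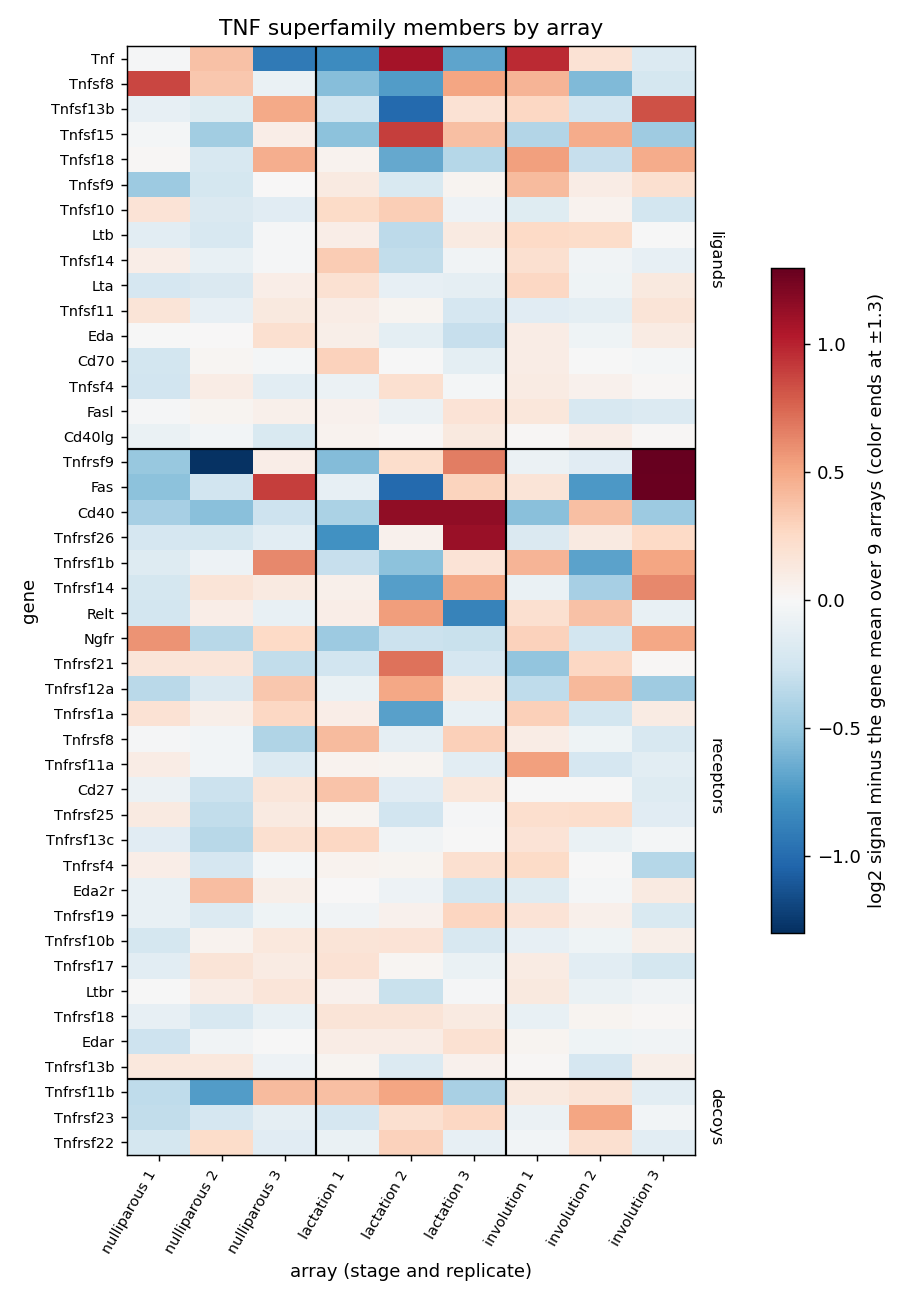
Heat map of the 44 members (rows, ligands and receptors) on the 9 arrays (columns, 3 per stage), coloured by log2 signal minus the mean of that gene over the 9 arrays. Array 2 of the ASC-Ls is the highest of the 9 for 12 members and the lowest for 9.

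**Figure D2:**
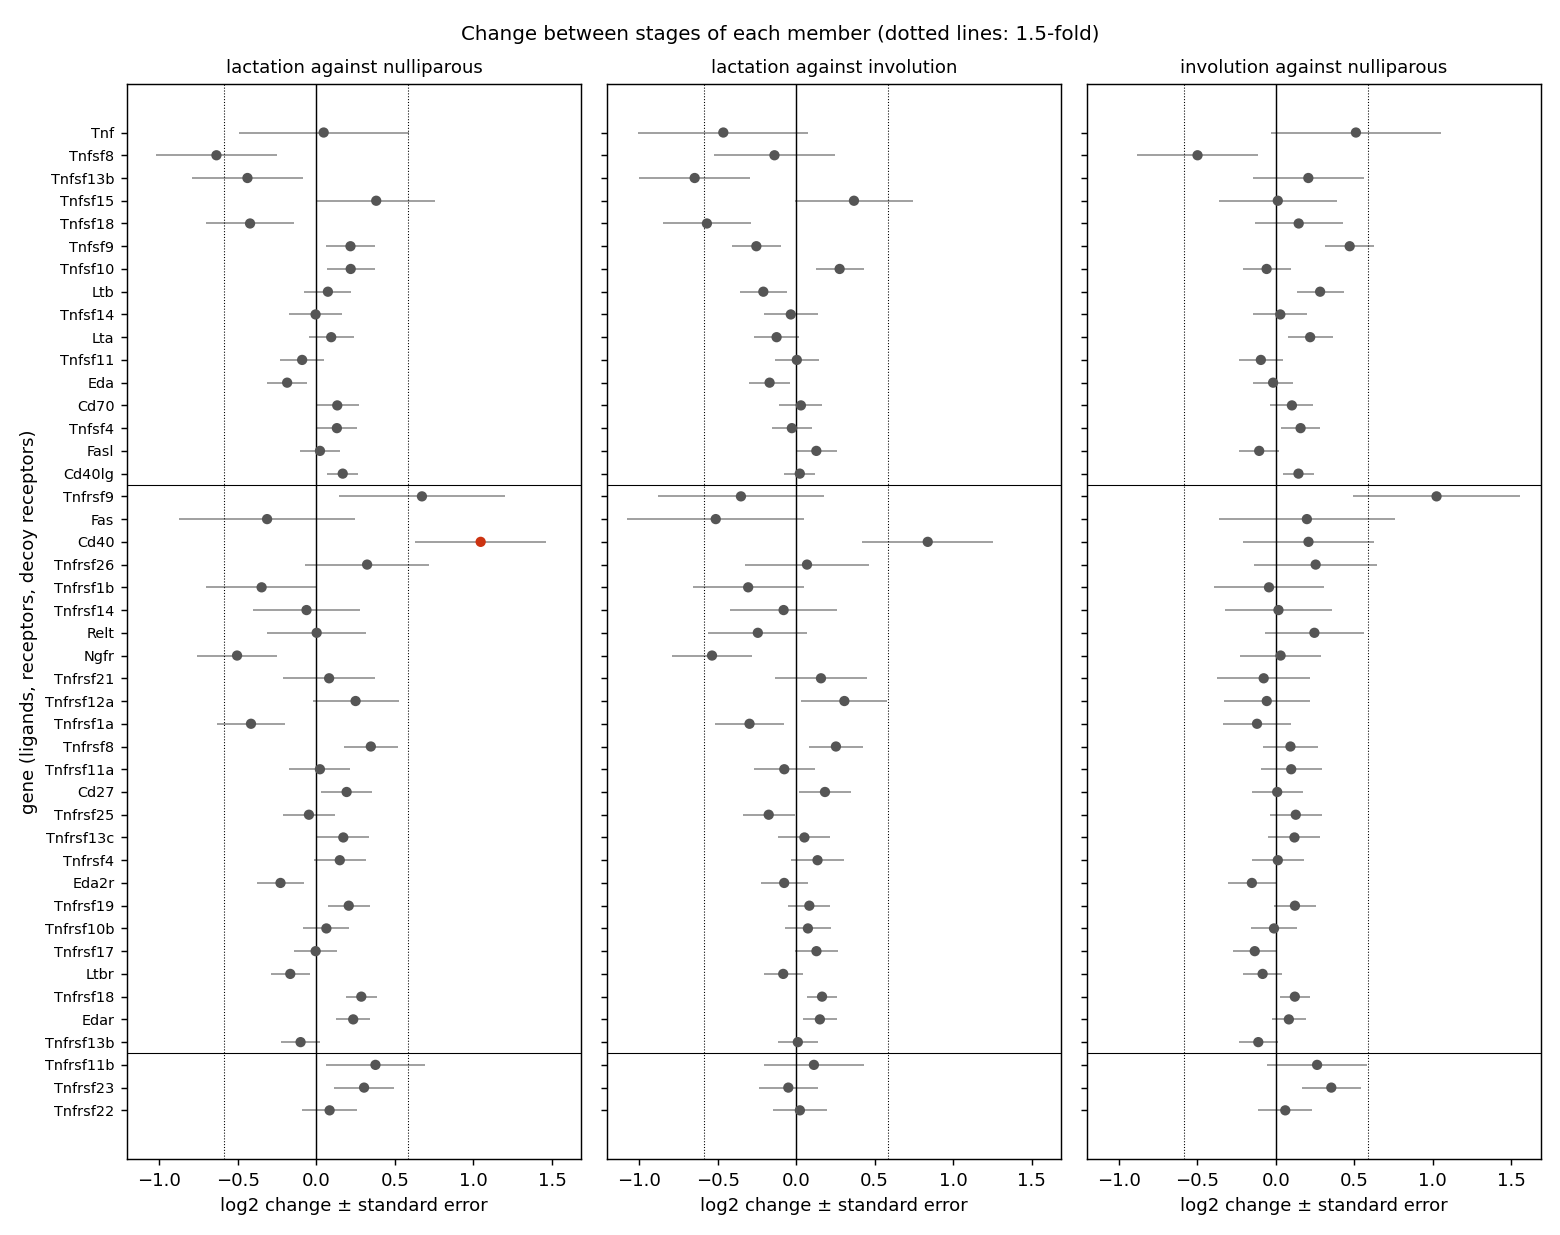
Log2 difference between stages for each member, with 1 panel per comparison, points at the limma estimate and bars of 1 SE, members past the limits in red. Cd40 at 1.05 in ASC-Ls against ASC-Ns is the sole red point, and most of the other members lie near 0.

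CD40, a receptor through which T cells license antigen-presenting cells and which stromal cells can also carry, was the member past the limits. Its log2 signal was 6.46, 6.35 and 6.62 in ASC-Ns, 6.48, 8.05 and 8.04 in ASC-Ls and 6.35, 7.28 and 6.42 in ASC-Is. ASC-L arrays 2 and 3 were the highest of the 9, while ASC-L array 1 lay inside the range of the ASC-Ns, so the groups overlap. The difference from ASC-Ns was 1.05 ± 0.42 (SE, unadjusted p = 0.0334), which is 2.07-fold, with a 95% interval of 0.10 to 1.99 and an adjusted limma p of 0.998. Against ASC-Is the difference was 0.84 ± 0.42 (SE, unadjusted p = 0.0753). With the replicate number as a block over all 9 arrays, the difference from ASC-Is became 0.84 (unadjusted p = 0.0365) and passed the limits, as 1.04% of all genes did. ASC-L array 2 also had the highest luminal epithelial list mean, 8.58, and among the ASC-Is array 2 had both the highest luminal mean, 7.23, and the highest Cd40 signal. The endothelial list mean was 7.12 on ASC-L array 2 and 6.62 on ASC-I array 2, each the highest of its stage. ASC-L array 3, with a Cd40 signal about as high as that of array 2, had a luminal mean of 5.94 and an endothelial mean of 5.74. On ASC-N array 1 the endothelial mean was 6.83 at a Cd40 signal of 6.46. The part of epithelial or endothelial RNA in the Cd40 values was not tested.

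The Cd40 rise over ASC-Ns rested on few arrays. Without ASC-L array 2 it was 0.78 (unadjusted p = 0.113) and without ASC-L array 3 0.79 (unadjusted p = 0.118), whereas without ASC-L array 1 it was 1.57 (unadjusted p = 0.000391). Leaving out ASC-N array 1, 2 or 3 gave 1.04 (unadjusted p = 0.0709), 0.98 (unadjusted p = 0.0821) and 1.12 (unadjusted p = 0.0523). Against ASC-Is, Cd40 passed the limits without ASC-L array 1 at 1.36 (unadjusted p = 0.000976) and without ASC-I array 2 at 1.14 (unadjusted p = 0.0296), where 1.66% and 1.59% of all genes passed. Its ligand, Cd40lg, which activated T cells display, gave 3.59, 3.65 and 3.49 in ASC-Ns, 3.73, 3.69 and 3.81 in ASC-Ls and 3.70, 3.77 and 3.70 in ASC-Is. The ASC-L and ASC-I arrays of Cd40lg all lay above all ASC-N arrays, yet the difference of ASC-Ls from ASC-Ns was 0.17 ± 0.10 (SE, unadjusted p = 0.123) and that of ASC-Is from ASC-Ns 0.14 ± 0.10 (SE, unadjusted p = 0.178). Cd40lg was 1 of 8 members in the lowest 25% of genes by mean signal, and whether such probe sets were above background was not tested.

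**Figure D3:**
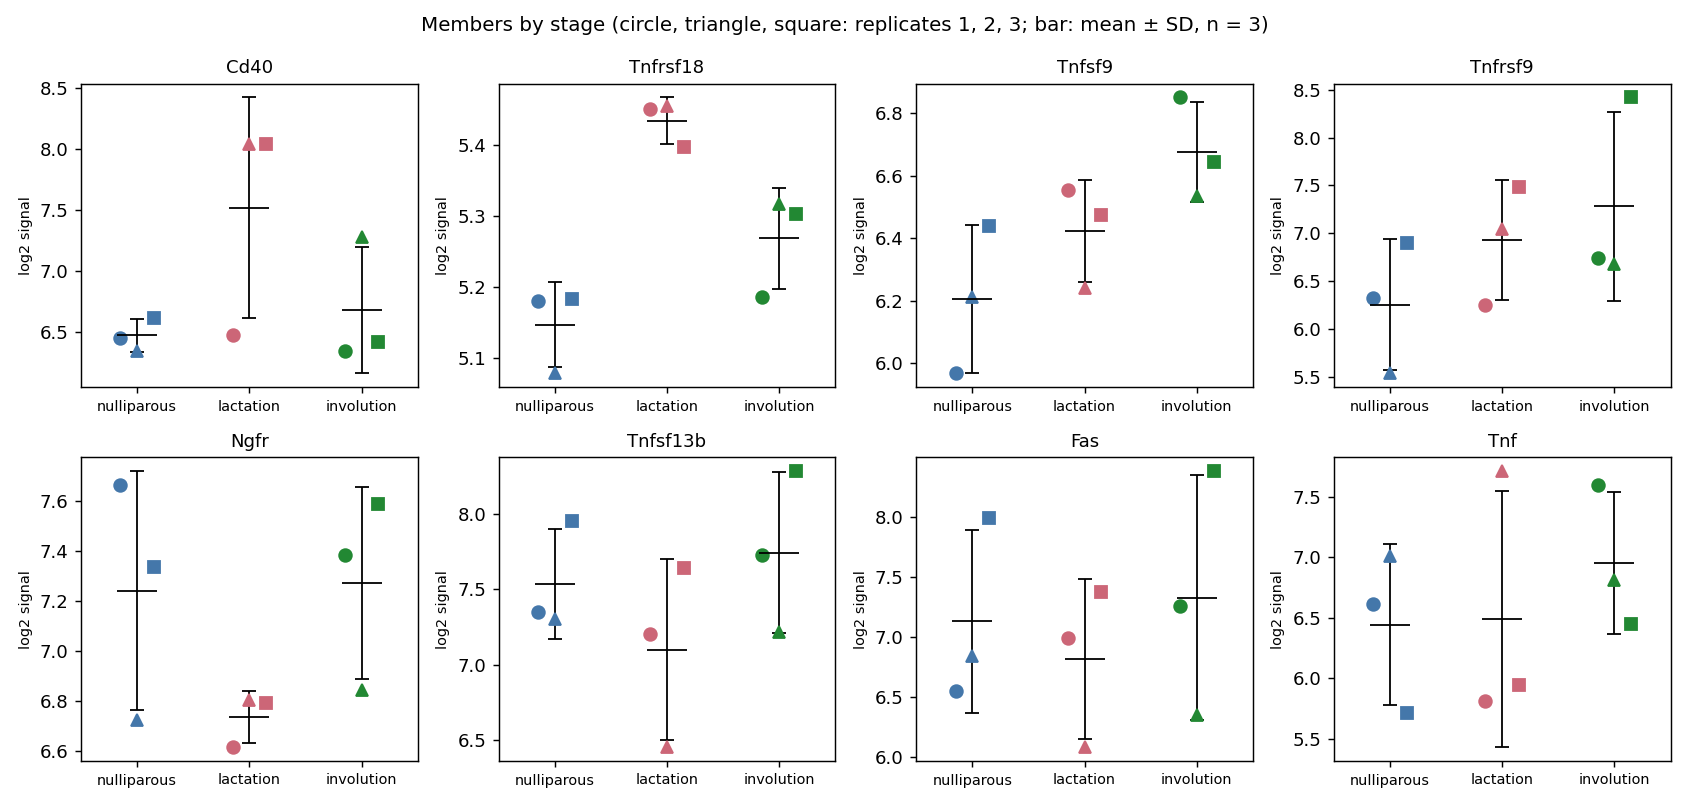
Log2 signal of Cd40, Tnfrsf18, Tnfsf9, Tnfrsf9, Ngfr, Tnfsf13b, Fas and Tnf in ASC-Ns, ASC-Ls and ASC-Is, with circles, triangles and squares for arrays 1, 2 and 3 of a stage and bars for the mean ± SD of 3 arrays. Tnfrsf18 keeps its stages apart at a difference of 0.29 between ASC-Ls and ASC-Ns, while Fas and Tnf spread over more than 1 unit within a stage.

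Arrays of different stages did not overlap for 4 members in ASC-Ls against ASC-Ns (8.59% of all genes), 3 in ASC-Ls against ASC-Is (5.56%) and 5 in ASC-Is against ASC-Ns (6.54%). These were Cd40lg, Edar, Tnfrsf18 and Tnfrsf19 in the first, Edar, Ngfr and Tnfrsf18 in the second, and Cd40lg, Ltb, Tnfrsf18, Tnfrsf23 and Tnfsf9 in the third. Tnfrsf18, which encodes the costimulatory receptor GITR, was in all 3 sets. It read 5.18, 5.08 and 5.18 in ASC-Ns, 5.45, 5.46 and 5.40 in ASC-Ls and 5.19, 5.32 and 5.30 in ASC-Is. The ASC-L arrays were uniformly the highest and the ASC-N arrays the lowest, with the ASC-Is between them. The difference of ASC-Ls from ASC-Ns was 0.29 ± 0.10 (SE, unadjusted p = 0.0162), or 1.22-fold with a 95% interval of 0.07 to 0.51, which is under the fold limit. ASC-Ls stood 0.17 ± 0.10 (SE, unadjusted p = 0.122) above ASC-Is, and ASC-Is 0.12 ± 0.10 (SE, unadjusted p = 0.243) above ASC-Ns. Among 14 T and NK cell genes 1, Cd8a, also kept ASC-Ns (4.97 to 5.23) and ASC-Ls (5.41 to 5.63) apart. Every Tnfrsf18 value lay below the lowest array median, 5.93, and whether its signal was above background was not tested. The GITR ligand gene Tnfsf18 ran the other way in ASC-Ls by its means, with 4.30, 4.07 and 4.75 in ASC-Ns, 4.33, 3.61 and 3.91 in ASC-Ls and 4.82, 3.98 and 4.76 in ASC-Is. These ranges overlap, and ASC-Ls differed from ASC-Is by -0.57 ± 0.28 (SE, unadjusted p = 0.0728). That value passed the limits without ASC-L array 1, at -0.76 (unadjusted p = 0.0332), and without ASC-I array 2, at -0.84 (unadjusted p = 0.0107). Of all genes 1.66% and 1.59% passed in these settings, against 0.482% with every array.

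CD137 (Tnfrsf9) and its ligand (Tnfsf9), a costimulatory pair of activated lymphocytes and myeloid cells, had the largest receptor difference and the smallest p of a ligand in involution. Tnfsf9 read 5.97, 6.21 and 6.44 in ASC-Ns, 6.56, 6.24 and 6.48 in ASC-Ls and 6.85, 6.53 and 6.64 in ASC-Is. All ASC-I arrays lay above all ASC-N arrays, and the difference was 0.47 ± 0.16 (SE, unadjusted p = 0.0145), or 1.39-fold with a 95% interval of 0.12 to 0.82. It missed the fold limit, and without ASC-N array 3 it passed at 0.59 (unadjusted p = 0.00595), as 1.11% of all genes did. Tnfrsf9 read 6.33, 5.54 and 6.91 in ASC-Ns, 6.26, 7.05 and 7.49 in ASC-Ls and 6.75, 6.68 and 8.42 in ASC-Is. ASC-I array 3 was the highest of the 9, and the other ASC-I arrays lay within the ASC-N range. Its difference of 1.02 ± 0.53 (SE, unadjusted p = 0.0862), or 2.03-fold, had a 95% interval of -0.18 to 2.23. Without ASC-I array 3 the difference was 0.46 (unadjusted p = 0.331) and without ASC-N array 3 1.35 (unadjusted p = 0.0474). Against ASC-Ns the ASC-Ls gave 0.67 ± 0.53 (SE, unadjusted p = 0.237) for Tnfrsf9.

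Promoter windows of 250 bases before to 50 after a RefSeq start (GRCm38.p6) were found for 35 of the 44 members, in 39 windows. The members without a window, Cd40 and Tnfsf9 among them, could not be searched. The NF-κB letters, GGGA then any 4 bases then CC, read on both strands, were in 12 of the 39 windows (30.8%), where 20.7% of all 32851 windows of this length hold them. Of the 12, the windows of Tnfrsf9, the receptor with the largest mean difference in involution, and of Ltb, a ligand whose ASC-I and ASC-N arrays did not overlap, are shown with those letters in capitals. Tnfrsf9 has another window, at chr4:150919905-150920204, in which the letters were not found. A match of letters describes the window and is no evidence of binding. The Tnfrsf9 window shown lies at chr4:150927749-150928048 and that of Ltb at chr17:35194257-35194556, both on the plus strand and 5′ to 3′.
Tnfrsf9: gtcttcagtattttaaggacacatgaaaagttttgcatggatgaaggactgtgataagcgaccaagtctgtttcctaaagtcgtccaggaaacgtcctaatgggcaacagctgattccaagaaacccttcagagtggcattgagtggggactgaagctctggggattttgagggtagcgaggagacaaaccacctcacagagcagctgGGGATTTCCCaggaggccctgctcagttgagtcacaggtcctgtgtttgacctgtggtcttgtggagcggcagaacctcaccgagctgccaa
Ltb: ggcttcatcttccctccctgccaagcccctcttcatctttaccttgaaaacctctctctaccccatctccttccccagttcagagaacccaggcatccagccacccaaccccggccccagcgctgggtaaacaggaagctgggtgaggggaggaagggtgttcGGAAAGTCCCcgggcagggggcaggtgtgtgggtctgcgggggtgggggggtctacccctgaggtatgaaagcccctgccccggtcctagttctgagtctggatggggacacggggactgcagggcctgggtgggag

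None of the other costimulatory members passed the limits. OX40 (Tnfrsf4) and its ligand Tnfsf4, CD27 and its ligand CD70, and the lymphocyte receptor CD30 (Tnfrsf8) support T cell survival after activation. Their differences between stages ran from -0.03 for Tnfsf4 in ASC-Ls against ASC-Is to 0.35 for Tnfrsf8 in ASC-Ls against ASC-Ns. Tnfrsf8 read 5.25, 5.24 and 4.88 in ASC-Ns, 5.69, 5.15 and 5.58 in ASC-Ls and 5.37, 5.22 and 5.07 in ASC-Is. The lowest ASC-L array lay inside the ASC-N range, and the difference was 0.35 ± 0.17 (SE, unadjusted p = 0.0759). Cd27, Cd70 and Tnfsf4 were among the 8 members in the lowest 25% by mean signal, as were Fasl, Tnfrsf17, Tnfsf10, Tnfsf18 and Cd40lg.

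CD30 ligand (Tnfsf8) had the most negative ligand difference from ASC-Ns in both ASC-Ls and ASC-Is, without passing the limits. It read 5.80, 5.29 and 4.85 in ASC-Ns, 4.37, 4.21 and 5.44 in ASC-Ls and 5.37, 4.36 and 4.70 in ASC-Is. The groups overlap, as ASC-L array 3 and ASC-I array 1 reached the ASC-N values. ASC-Ls differed from ASC-Ns by -0.64 ± 0.39 (SE, unadjusted p = 0.134) and ASC-Is from ASC-Ns by -0.50 ± 0.39 (SE, unadjusted p = 0.229). Without ASC-L array 3 the first of these was -1.02 (unadjusted p = 0.0174). TL1A (Tnfsf15), the ligand of the death-domain receptor DR3, had the largest ligand mean difference upward in ASC-Ls, with 6.07, 5.64 and 6.19 in ASC-Ns, 5.56, 6.99 and 6.49 in ASC-Ls and 5.72, 6.58 and 5.64 in ASC-Is. ASC-L array 1 was the lowest of the 9 and array 2 the highest. Tnfsf15 differed by 0.38 ± 0.37 (SE, unadjusted p = 0.335) from ASC-Ns and by 0.37 ± 0.37 (SE, unadjusted p = 0.350) from ASC-Is, and without ASC-L array 1 these became 0.77 (unadjusted p = 0.0396) and 0.76 (unadjusted p = 0.0421). For DR3 itself (Tnfrsf25) the difference farthest from 0 was -0.17, in ASC-Ls against ASC-Is.

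TNF, the inflammatory cytokine that gives the family its name, had the largest ligand mean difference in involution. Tnf read 6.61, 7.01 and 5.71 in ASC-Ns, 5.81, 7.71 and 5.95 in ASC-Ls and 7.60, 6.81 and 6.45 in ASC-Is. Single arrays of every stage exceeded arrays of the others, with ASC-L array 2 the highest at 7.71 and ASC-N array 3 the lowest. ASC-Is differed from ASC-Ns by 0.51 ± 0.54 (SE, unadjusted p = 0.371), ASC-Ls from ASC-Ns by 0.05 ± 0.54 (SE, unadjusted p = 0.933) and ASC-Ls from ASC-Is by -0.46 ± 0.54 (SE, unadjusted p = 0.415). The last passed the limits without ASC-L array 2, at -1.07 (unadjusted p = 0.0321), as 0.492% of all genes did. Macrophages are a main source of TNF in tissue. Their marker list had its highest mean on ASC-I array 1 (8.33), where Tnf read 7.60, and a mean of 6.25 on ASC-L array 2, where Tnf read 7.71. The part of macrophage RNA in the Tnf values was not tested.

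Neither TNF receptor passed the limits. Tnfrsf1a, the death-domain receptor for soluble TNF that most cells carry, read 9.88, 9.77 and 9.96 in ASC-Ns, 9.78, 8.98 and 9.60 in ASC-Ls and 10.00, 9.45 and 9.80 in ASC-Is. ASC-L array 2 was the lowest of the 9, and ASC-Ls differed from ASC-Ns by -0.42 ± 0.22 (SE, unadjusted p = 0.0879). Tnfrsf1b, the receptor for membrane TNF found mainly on immune and endothelial cells, read 8.01, 8.12 and 8.81 in ASC-Ns, 7.89, 7.65 and 8.36 in ASC-Ls and 8.63, 7.49 and 8.70 in ASC-Is. All stages overlap for Tnfrsf1b, and ASC-Ls differed from ASC-Ns by -0.35 ± 0.35 (SE, unadjusted p = 0.349) and from ASC-Is by -0.31 ± 0.35 (SE, unadjusted p = 0.409). Without ASC-I array 2 the latter was -0.70 (unadjusted p = 0.0374).

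Lymphotoxins and their receptor shape lymphoid tissue, and none passed the limits. Ltb, the membrane-bound chain, read 5.35, 5.28 and 5.48 in ASC-Ns, 5.57, 5.15 and 5.61 in ASC-Ls and 5.75, 5.73 and 5.48 in ASC-Is. ASC-I and ASC-N arrays just failed to overlap, and their difference was 0.28 ± 0.15 (SE, unadjusted p = 0.0917). Lta, the secreted chain, differed by 0.22 ± 0.14 (SE, unadjusted p = 0.162) in the same comparison. Ltbr, the receptor of the mixed trimer, read 8.67 to 8.83 in ASC-Ns, 8.39 to 8.73 in ASC-Ls and 8.59 to 8.80 in ASC-Is and differed by -0.17 ± 0.13 (SE, unadjusted p = 0.218) between ASC-Ls and ASC-Ns. LIGHT (Tnfsf14), which also binds this receptor, and its other receptor HVEM (Tnfrsf14) had no difference farther from 0 than -0.08 in any comparison.

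Death ligands and receptors, the arm of the family linked to involution of the epithelium, gave no difference past the limits in these stromal cells. Fas read 6.56, 6.85 and 8.00 in ASC-Ns, 6.99, 6.09 and 7.38 in ASC-Ls and 7.26, 6.35 and 8.38 in ASC-Is. Array 3 was the highest and array 2 the lowest of both the ASC-Ls and the ASC-Is, and the ASC-Is spanned 2.03. ASC-Is differed from ASC-Ns by 0.20 ± 0.56 (SE, unadjusted p = 0.733) and ASC-Ls from ASC-Is by -0.51 ± 0.56 (SE, unadjusted p = 0.387). Without ASC-I array 3 these were -0.33 (unadjusted p = 0.546) and 0.01 (unadjusted p = 0.978), with the sign turned. Fasl, its ligand, read 3.88, 3.93 and 3.97 in ASC-Ns, 3.95, 3.82 and 4.08 in ASC-Ls and 4.05, 3.69 and 3.72 in ASC-Is, in the lowest 25% of genes by signal. No comparison of Fasl exceeded 0.13. TRAIL (Tnfsf10), a ligand that kills many tumour cells, read 4.19, 3.82 and 3.86 in ASC-Ns, 4.26, 4.33 and 3.94 in ASC-Ls and 3.86, 4.06 and 3.78 in ASC-Is, and ASC-Ls differed from ASC-Is by 0.28 ± 0.15 (SE, unadjusted p = 0.104). Its death receptor Tnfrsf10b read 8.70, 8.97 and 9.06 in ASC-Ns, 9.09, 9.10 and 8.72 in ASC-Ls and 8.82, 8.87 and 9.0 in ASC-Is and differed by 0.06 ± 0.15 (SE, unadjusted p = 0.674) between ASC-Ls and ASC-Ns.

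Tnfrsf22, Tnfrsf23 and Tnfrsf26 are neighbouring mouse genes of similar sequence, the first pair decoys for TRAIL, and whether their probes also bind each other's transcripts was not tested. Tnfrsf23 read 8.48, 8.59 and 8.69 in ASC-Ns, 8.59, 9.02 and 9.07 in ASC-Ls and 8.73, 9.31 and 8.77 in ASC-Is. Every ASC-I array lay above all ASC-N arrays, and the difference was 0.35 ± 0.19 (SE, unadjusted p = 0.0945). Tnfrsf22 differed by 0.06 ± 0.17 (SE) in the same comparison. Tnfrsf26 had the widest spread of any member in ASC-Ls, from 5.60 on array 1 to 7.51 on array 3, and differed from ASC-Ns by 0.32 ± 0.39 (SE, unadjusted p = 0.432). Without ASC-L array 1 that was 0.78 (unadjusted p = 0.0265), and without ASC-L array 3 -0.17 (unadjusted p = 0.497).

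No member of the RANK axis passed the limits. Rankl (Tnfsf11), the ligand of mammary alveolar growth and osteoclast formation, read 7.76, 7.49 and 7.73 in ASC-Ns, 7.69, 7.64 and 7.38 in ASC-Ls and 7.45, 7.47 and 7.77 in ASC-Is. Its stages overlap throughout, and ASC-Ls differed from ASC-Ns by -0.09 ± 0.14 (SE, unadjusted p = 0.539). Rank (Tnfrsf11a), its signalling receptor, read 5.66, 5.53 and 5.39 in ASC-Ns, 5.61, 5.60 and 5.43 in ASC-Ls and 6.10, 5.35 and 5.43 in ASC-Is and differed by 0.02 ± 0.19 (SE, unadjusted p = 0.909) in the same comparison. Osteoprotegerin (Tnfrsf11b), the secreted decoy that blocks RANKL, read 7.60, 7.20 and 8.34 in ASC-Ns, 8.32, 8.44 and 7.50 in ASC-Ls and 8.05, 8.09 and 7.78 in ASC-Is. ASC-N array 2 was the lowest of the 9, while ASC-N array 3 lay among the highest. ASC-Ls differed from ASC-Ns by 0.38 ± 0.32 (SE, unadjusted p = 0.266), and without ASC-N array 3 by 0.69 (unadjusted p = 0.0405).

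BAFF (Tnfsf13b), a B cell survival factor that stromal and myeloid cells secrete, had the most negative ligand difference in ASC-Ls against ASC-Is. It read 7.35, 7.30 and 7.96 in ASC-Ns, 7.20, 6.45 and 7.64 in ASC-Ls and 7.73, 7.22 and 8.29 in ASC-Is. For each array number the ASC-L value lay below the ASC-I value, although the stages overlap. The difference was -0.65 ± 0.35 (SE, unadjusted p = 0.102). With the replicate number as a block it was -0.65 (unadjusted p = 0.00246) and passed the limits, as 1.04% of all genes did. It also passed without ASC-L array 3, at -0.92 (unadjusted p = 0.0342), and without ASC-I array 2, at -0.91 (unadjusted p = 0.0361). Of all genes 0.467% and 1.59% passed in these settings. The macrophage list mean was also lower in ASC-Ls, with 6.07 to 6.36 against 6.74 to 8.33 in ASC-Is. Within each stage Tnfsf13b was highest on array 3. The macrophage mean of that array was 5.78 in ASC-Ns and 6.07 in ASC-Ls, each the lowest of its stage, and 7.26 in ASC-Is. The part of macrophage RNA in the difference was not tested. The 3 BAFF receptors, TACI (Tnfrsf13b), BAFF-R (Tnfrsf13c) and BCMA (Tnfrsf17), sit on B cells and differed between -0.13 and 0.17.

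Ngfr, the p75 neurotrophin receptor of neural crest derivatives and some mesenchymal stem cells, was the receptor with the most negative difference of ASC-Ls from either other stage. It read 7.67, 6.72 and 7.34 in ASC-Ns, 6.62, 6.80 and 6.79 in ASC-Ls and 7.39, 6.84 and 7.59 in ASC-Is. The ASC-L arrays were tightly grouped, SD 0.10, and all lay below every ASC-I array, but ASC-N array 2 fell among them. ASC-Ls differed from ASC-Is by -0.54 ± 0.26 (SE, unadjusted p = 0.0670), a ratio of 1.45-fold, with a 95% interval of -1.12 to 0.05. From ASC-Ns they differed by -0.50 ± 0.26 (SE, unadjusted p = 0.0811). Without ASC-N array 2 the latter was -0.76 (unadjusted p = 0.00974), and without ASC-I array 2 the former was -0.75 (unadjusted p = 0.0176).

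Ectodysplasin (Eda) and its receptor Edar direct the growth of mammary buds and hair follicles. Eda read 6.09, 6.09 and 6.30 in ASC-Ns, 6.17, 5.96 and 5.79 in ASC-Ls and 6.19, 6.04 and 6.20 in ASC-Is and differed by -0.19 ± 0.13 (SE, unadjusted p = 0.181) between ASC-Ls and ASC-Ns. Edar read 4.81, 5.03 and 5.07 in ASC-Ns, 5.17, 5.18 and 5.28 in ASC-Ls and 5.12, 5.02 and 5.03 in ASC-Is. Its ASC-L arrays lay above all other arrays, by 0.23 ± 0.11 (SE, unadjusted p = 0.0591) over ASC-Ns and 0.15 ± 0.11 (SE, unadjusted p = 0.196) over ASC-Is, below the fold limit. Eda2r, the receptor of the other Eda isoform, was the receptor with the most negative difference of ASC-Is from ASC-Ns and read 8.29, 8.79 and 8.47 in ASC-Ns, 8.39, 8.33 and 8.15 in ASC-Ls and 8.23, 8.36 and 8.50 in ASC-Is. Its ranges overlap, and the difference of ASC-Is from ASC-Ns was -0.15 ± 0.15 (SE, unadjusted p = 0.338).

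Tnfrsf12a, the TWEAK receptor of injured and growing mesenchyme, read 9.12, 9.28 and 9.82 in ASC-Ns, 9.38, 9.97 and 9.61 in ASC-Ls and 9.14, 9.89 and 9.01 in ASC-Is. No stage separated, and ASC-Ls differed by 0.25 ± 0.27 (SE, unadjusted p = 0.386) from ASC-Ns. Tnfrsf19, an orphan receptor of progenitor cells, had ASC-L arrays just above the ASC-N arrays, by 0.21 ± 0.13 (SE, unadjusted p = 0.160). Tnfrsf21, a death-domain receptor, and Relt, an orphan receptor, differed by at most 0.16 and 0.25 in any comparison, each with ranges that overlap.

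Of the pathway downstream of the receptors, the adaptors and kinases (32 genes measured, from TRAFs to the linear ubiquitin complex) had 0 genes past the limits in any comparison, as had the 12 NF-κB subunits and inhibitors and the 8 genes that shed or process the ligands or control their shedding. At an unadjusted limma p below 0.05 the adaptors gave 1, 0 and 1 genes for ASC-Ls against ASC-Ns, ASC-Ls against ASC-Is and ASC-Is against ASC-Ns, and the other lists gave 0 in each. Nfkbia, which retains NF-κB in the cytoplasm and is itself an NF-κB target, differed by -0.62 ± 0.65 (SE, unadjusted p = 0.365) between ASC-Ls and ASC-Is, and with the replicate number as a block by -0.62 (unadjusted p = 0.0497), past the limits as were 1.04% of all genes. Rhbdf2, which escorts the TNF-shedding protease, differed by 0.54 ± 0.36 (SE, unadjusted p = 0.164) between ASC-Ls and ASC-Ns, and without ASC-L array 1 by 1.00 (unadjusted p = 0.00139).

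Of 30 NF-κB target genes, 0 passed in ASC-Ls against ASC-Ns by limma (1 at an unadjusted p below 0.05), 2 fell in ASC-Ls against ASC-Is and 2 rose in ASC-Is against ASC-Ns, beside 0.406% of all genes that fell and 0.0702% that rose in these comparisons. Il1b, an inflammatory cytokine of myeloid cells, read 6.54, 6.24 and 5.21 in ASC-Ns, 5.30, 7.15 and 5.74 in ASC-Ls and 7.0, 7.58 and 7.09 in ASC-Is. All its ASC-I arrays lay above all ASC-N arrays, and ASC-L array 2 reached 7.15, among the ASC-Is. Il1b differed by 1.23 ± 0.49 (SE, unadjusted p = 0.0329) between ASC-Is and ASC-Ns, and ASC-Ls differed from ASC-Is by -1.16 ± 0.49 (SE, unadjusted p = 0.0412). Cxcl2, a neutrophil chemokine, read 7.04, 7.33 and 6.82 in ASC-Ns, 5.69, 6.04 and 7.24 in ASC-Ls and 8.18, 6.65 and 7.57 in ASC-Is, and ASC-Ls differed from ASC-Is by -1.14 ± 0.45 (SE, unadjusted p = 0.0330). Ier3, an immediate early gene, read 9.0, 8.90 and 9.68 in ASC-Ns, 9.70, 10.09 and 9.51 in ASC-Ls and 9.72, 9.88 and 10.01 in ASC-Is, with ASC-Is 0.68 ± 0.23 (SE, unadjusted p = 0.0154) above ASC-Ns and no overlap. The calls hung on single arrays. The Il1b difference of ASC-Ls from ASC-Is ran from -1.71 to -0.78 with 1 array left out and missed the limits without ASC-N array 2, ASC-L array 1 or 3, or any ASC-I array. Its difference of ASC-Is from ASC-Ns ran from 0.83 to 1.5 and missed them without ASC-N array 3 or ASC-I array 2 or 3. Cxcl2 ran from -1.60 to -0.78 and missed them without ASC-L array 1 or 2 or ASC-I array 1 or 3, and Ier3 ran from 0.53 to 0.92 and missed them without ASC-N array 1 or 2 or ASC-I array 3. Of 20 macrophage genes, 19 had an ASC-L mean below the ASC-I mean and 17 an ASC-I mean above the ASC-N mean. In ASC-Ls against ASC-Ns, 19 of the 20 had a lower mean, where Ier3 read 9.70, 10.09 and 9.51 against 9.0, 8.90 and 9.68. Within the ASC-Is the macrophage mean was 8.33, 6.74 and 7.26 on arrays 1, 2 and 3, where Il1b read 7.0, 7.58 and 7.09. The part of macrophage RNA in these targets was not tested.

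**Figure D4:**
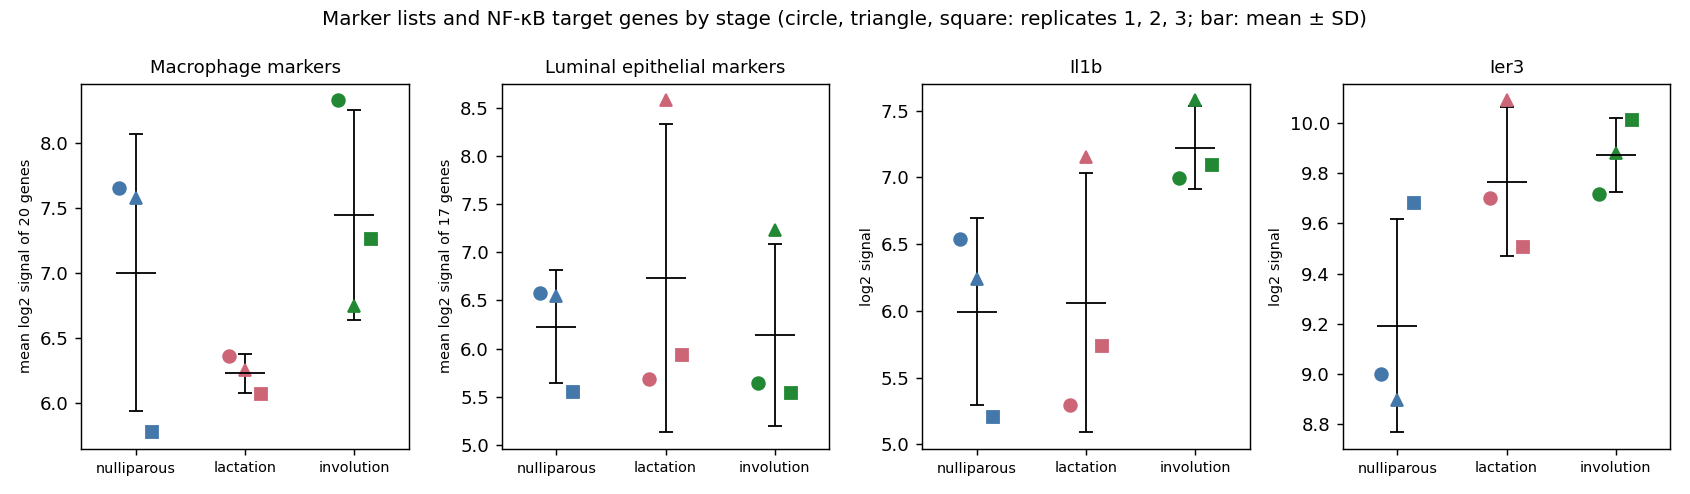
Mean log2 signal of 20 macrophage genes and of 17 luminal epithelial genes, and log2 signal of the NF-κB targets Il1b and Ier3, on the 3 arrays of each stage. The macrophage mean is at 6.07 to 6.36 in ASC-Ls and 6.74 to 8.33 in ASC-Is, and the luminal mean peaks at 8.58 on array 2 of the ASC-Ls.

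Single preparations of a stage differed widely for some members. Fas spanned 1.44 over the ASC-Ns and 2.03 over the ASC-Is, and the members that spanned more than 1 unit within a stage numbered 4 in ASC-Ns, 10 in ASC-Ls and 7 in ASC-Is. ASC-L array 2 was the highest of the 9 for 12 members, the lowest for 9, and an extreme for 21, where any other array was an extreme for 6 to 10. Among all genes the same array was the highest for 16.8% and the lowest for 19.8%. With array 2 of both ASC-Ls and ASC-Is left out, Cd40 differed by 0.78 (unadjusted p = 0.0840) between ASC-Ls and ASC-Ns, and Ngfr, Tnf and Tnfsf18 passed with ASC-L means below the ASC-Is, in a setting where 0.973% of all genes passed in that comparison.

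By RefSeq order in GRCm38, 18 of the members stand in 7 groups with no other protein-coding gene between them, among them Ltb, Tnf and Lta, Tnfsf9, Cd70 and Tnfsf14, and Tnfrsf4 and Tnfrsf18. Tnfrsf18 was uniformly high in ASC-Ls, whereas Tnfrsf4 beside it differed from ASC-Ns by 0.15 ± 0.17 (SE, unadjusted p = 0.392). Tnfsf9 differed by 0.47 in ASC-Is against ASC-Ns, and its neighbours Cd70 and Tnfsf14 by 0.10 and 0.03.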

How the data were processed

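Log2 signals of 28348 probe sets on 9 arrays were used as the authors deposited them. The study's methods name robust multi-array averaging, the submitters' processing notes GCRMA and limma without versions, and which of them made the table is not settled. The methods name a column kit for the RNA and the labels Trizol. Probe sets with 1 gene symbol in the platform annotation (21762, with 1621 of several symbols and 4965 of none left out) were averaged to 19930 genes. All 44 members matched the GRCm38 RefSeq table by Entrez ID with 0 symbols changed. No filter on low signal was applied, array medians were 5.93 to 6.00, and array number, 3 per stage, limits the precision.

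Stages were compared in 1 limma fit (version 3.58.1, R 4.3.3, lmFit and eBayes, prior df 2.91) with no block, tested on simulated data. Limits were an unadjusted p below 0.05 and 1.5-fold, with Benjamini-Hochberg adjustment over all genes. Same-numbered ASC-Ls and ASC-Is deviated together (r = 0.47, 0.73 and 0.46 across genes), so the blocked value is given beside their results where it changed a call. The family and lists were chosen with earlier results of these data known, and the members within the family by name. Full values are given for members past the limits, those without overlap and a difference of at least 0.3, the largest mean difference each way among ligands and receptors, and those of known mammary or adipose role. Other normalizations, filters, weights, the block and each array left out were tried.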

Additional observations from a re-analysis of the deposited data

How the results depend on the processing

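With 3 arrays a stage and SEs of 0.10 to 0.65 for the genes named, small differences could not be resolved. The single member past the limits in ASC-Ls against ASC-Ns became 2 with array weights (Cd40 and Ngfr, where 1.56% of all genes passed), 2 with the p alone (Cd40 and Tnfrsf18, 3.64%), 0 with array 2 of both ASC-Ls and ASC-Is left out (0.773%) and 0 with the adjusted p. Leaving out single arrays gave 0 to 3 members and 0.401% to 2.03% of all genes. In ASC-Ls against ASC-Is the count of 0 became 2 with the replicate block (1.04% of all genes), 3 with both arrays 2 left out (0.973%), and 0 to 5 with single arrays left out (0.181% to 1.66%). In ASC-Is against ASC-Ns the count of 0 became 2 with array weights (Tnfrsf9 and Tnfsf9, 0.938% of all genes), 1 with the p alone (1.56%), 1 with the replicate block (0.452%) and 0 to 2 with single arrays left out (0.161% to 1.11%). In the pairing check same-numbered arrays gave r of -0.08, 0.40 and 0.45 for ASC-Ls and ASC-Ns and 0.07, 0.43 and 0.50 for ASC-Is and ASC-Ns. Arrays of unlike number gave -0.50 to 0.31 and -0.45 to 0.20 in the same pairs of stages. Numbers 2 and 3 thus deviated together with the ASC-Ns as well, while number 1 did not. What a replicate number marks is not stated in the labels. The replicate block called 1 member in ASC-Ls against ASC-Ns, Cd40, and 1 in ASC-Is against ASC-Ns, Tnfrsf9, the latter at 1.02 (unadjusted p = 0.00908). Outside Cd40, Tnfsf13b and Tnfrsf9 it changed no other member's call. Quantile and cyclic loess normalization, the filters and the probe set choices left every count of members as it was. For the downstream genes the alternatives were added after seeing the data. Of the NF-κB targets 0 passed in ASC-Ls against ASC-Ns. This count became 1 with array weights (1.56% of all genes), quantile (0.577%) or cyclic loess normalization (0.582%). It became 2 with the replicate block (1.48%) and 0 to 4 with single arrays left out (0.401% to 2.03%). The 2 in ASC-Ls against ASC-Is became 1 with an intensity trend (0.396% of all genes), with the compared stages alone (0.602%) or with cyclic loess (0.371%). With single arrays left out they became 0 to 2 (0.181% to 1.66%). The 2 without ASC-L array 1 were other genes, Csf2 at 2.72 and Csf3 at 0.63, both higher in ASC-Ls. The 2 in ASC-Is against ASC-Ns became 5 with array weights (0.938% of all genes), 3 with the replicate block (0.452%) and 0 to 3 with single arrays left out (0.161% to 1.11%). With both arrays 2 left out 3 passed (0.723%), Tnfaip6 among them, lower in ASC-Is at -0.97 (unadjusted p = 0.0187). Of the other downstream lists 0 genes passed, against 1 with the replicate block in ASC-Ls against ASC-Is (1.04% of all genes). With single arrays left out 0 to 1 passed, beside the shares of all genes given above. Of the 132 differences of members, 60 changed sign under at least 1 alternative, none of them while past the limits. With both arrays 2 left out Tnf in ASC-Ls against ASC-Ns, for example, became -0.56 (unadjusted p = 0.232). The cause of these shifts was not tested.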
